A study of Homo sapiens with 18 samples.

Results

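The rows NOTCH1, DEAF1, L3MBTL2, NPB, SLC46A1, ZSWIM8-AS1 and AC016773.1 of an RNA-seq count table from RWPE1 prostate cells are described here. They are 7 of the 57773 genes in the table and 7 of the 5816 genes that had enough reads to be tested. The rows were picked from measured values. DEAF1, NOTCH1, L3MBTL2, NPB and AC016773.1 were among the rows that differed most between tamoxifen and vehicle in cells with the activating construct. DEAF1, AC016773.1, SLC46A1 and ZSWIM8-AS1 were among those whose tamoxifen effect differed most between the activating and the neutral construct. Both of these contrasts are therefore given only as a description. The cells with the repressive construct took no part in the choice, and the rows were tested there.

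RWPE1 is an established benign human prostate epithelial line, grown here in keratinocyte serum-free medium. Each of 3 lines stably carried 1 MACC construct delivered by lentivirus and was selected with blasticidin. Whether a line was a single clone is not given in the sources used here. All MACC constructs join the DNA-binding domain of the androgen receptor, which recognises androgen response elements (AREs), to the tamoxifen-gated ERT2 domain and a 3X FLAG tag. The neutral construct carried nothing more, the repressive construct added KRAB, a domain that recruits silencing factors, and the activating construct added VP64, a strong transcriptional activator. Treatment was with tamoxifen or its ethanol vehicle over 48 hours, in 3 biological replicates per group, which gives 6 groups and 18 libraries. For the dose of tamoxifen the labels state 1.5 uM in 1 place and 1.25 uM in another, and which was used is not resolved. Replicates are separate samples, so the p-values measure the spread between these libraries, and whether they came from independent line derivations is not stated.

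NOTCH1 is a cell-surface receptor. When a ligand on a neighbouring cell engages it, proteases release its intracellular part, which enters the nucleus and switches on genes of the HES and HEY families. In prostate epithelium Notch signalling is known for its part in the balance of basal and luminal cells. DEAF1 is a DNA-binding transcription factor that recognises TTCG-rich sequence, and L3MBTL2 is a chromatin protein of the PRC1.6 complex, a Polycomb-group complex that represses germline genes in other cells. NPB encodes neuropeptide B, a secreted peptide that signals through G protein-coupled receptors. SLC46A1 encodes the proton-coupled folate transporter. ZSWIM8-AS1 is a long non-coding RNA antisense to ZSWIM8, whose protein is a ubiquitin ligase adaptor known for destroying Argonaute during target-directed microRNA decay.

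Total counts per library ranged from 675609 to 792282, so that a row with no read in a library could still have a level of up to 3.79 to 4.44 CPM (3 counts, counting error only). Replicates differed by more than sampling noise in each of the 18 pairs within groups (chi-square per degree of freedom 2.75 to 3.82). The basal keratins KRT5 and KRT14 had at least 679 and 435 counts in every library, while KLK3, the luminal secretory marker prostate-specific antigen, and PTPRC, the leukocyte marker CD45, had 0 in all 18. Of 8 listed markers of other cell types 7 were found among the rows, and 5 of these were at 0 throughout, while the macrophage marker CD68 had 8 to 28 counts and the fibroblast collagen COL1A1 0 to 12. The library kit keeps strand, and the strand setting used in counting is not stated. In this table MT-ND6, the only light-strand gene among the 13 mitochondrial protein genes, took 71.7% to 79.6% of their counts, and the lncRNA row ENSG00000269968, antisense to GAPDH, averaged 27218 counts against 328 for GAPDH itself. BEST1, which lies opposite the ferritin gene FTH1, averaged 59592 counts against 279 for FTH1. At these abundant genes most reads thus sat on the row opposite the gene that is normally expressed. For each row described here, which strand's transcripts it holds was not tested, and the gene opposite is given beside it. The strand was not tested for the marker rows either, so a count of 0 there does not show that the gene was silent.

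Positions are from the GENCODE annotation on GRCh37. NOTCH1 (ENSG00000148400) lies at chr9:139388885-139440500 on the minus strand, and no exon of another gene in the table overlaps its 12531 exonic bases on the other strand. DEAF1 (ENSG00000177030) lies at chr11:644233-707118 on the minus strand and shares 219 exonic bases, 2.99% of its total and non-coding in both genes, with EPS8L2, which encodes an EPS8-like regulator of actin. L3MBTL2 (ENSG00000100395) lies at chr22:41601286-41627275 on the plus strand, and 1363 of its exonic bases (21.4%) are shared with the antisense RNA RP4-756G23.5, named L3MBTL2-AS1 in the annotation. NPB (ENSG00000183979) lies at chr17:79858621-79860781 on the plus strand. Of its 2161 exonic bases, 1948 (90.1%) are shared with PCYT2, the rate-limiting enzyme of phosphatidylethanolamine synthesis, 468 of them in the NPB coding sequence and all in non-coding parts of PCYT2.

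SLC46A1 (ENSG00000076351) lies at chr17:26721661-26734215 on the minus strand and shares 4418 of 7952 exonic bases (55.6%) with SARM1, an enzyme that cleaves NAD and drives axon loss. ZSWIM8-AS1 (ENSG00000272589) lies at chr10:75556272-75561157 on the minus strand, and 943 of its 1460 exonic bases (64.6%) are coding sequence of ZSWIM8. On its own strand it shares 1431 bases, non-coding in both, with RP11-574K11.31, a row annotated as protein-coding. RP11-574K11.31 also lies opposite ZSWIM8 and shares 1330 of its exonic bases (22.9%) with that gene. AC016773.1 (ENSG00000218422) was not matched to the annotation and is given without a position.

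Since MACC constructs bind AREs, the genome sequence within 10 kb of each gene start was searched for the ARE consensus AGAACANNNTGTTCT, which reads the same on both strands and has 12 fixed letters. The gene start was the outermost annotated end of the gene, chr11:707118 for DEAF1, and no other start of a gene was used. None of the 6 placed rows had a match with 0 or 1 mismatch, and among the 5635 genes searched 0.337% and 6.64% had one. DEAF1 and L3MBTL2 had a match with 2 mismatches, as did PCYT2 and RP4-756G23.5 among the opposite genes, and 65.4% of all genes searched had one as close. NOTCH1, NPB, SLC46A1 and ZSWIM8-AS1 came no closer than 3 mismatches, which every gene searched reached. L3MBTL2 and PCYT2 each had 2 such matches. For each of these 4 genes the match nearest its start is shown on the GRCh37 plus strand, with the 15 bases aligned to the consensus in capitals.
DEAF1 (chr11:715323-715337, centred at -8212 from the gene start): ccctcggAGCACAGGATTTTCTttgtggg
L3MBTL2 (chr22:41597806-41597820, centred at -3473): ttttgagAGAAAATCTTGCTCTgtcgccc
PCYT2 (chr17:79874028-79874042, centred at -4727): caaaggcAGAACAACTTCTTCAgatgaga
RP4-756G23.5 (chr22:41624512-41624526, centred at -15): catgtggGGAAGAGGATGTTCTgaaacag
Of the 4 shown, only the PCYT2 match keeps the complete left arm AGAACA, and only the RP4-756G23.5 match the complete right arm TGTTCT. Binding at these places was not measured in these libraries.

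RefSeq promoter windows, 250 bases before to 50 after a start on GRCh38.p14, were found for 5 of the 7 rows and not for NPB or AC016773.1. Neither ARE arm, AGAACA or TGTTCT, occurred in any window of these 5 rows or of their opposite genes, and 14.8% of 35116 RefSeq promoters held at least 1. The windows of the 3 protein-coding rows with lower counts under tamoxifen in the activating line are shown 5′ to 3′ on the strand of the gene, in lower case throughout because they hold neither arm.
NOTCH1 (chr9:136545999-136546298, minus strand): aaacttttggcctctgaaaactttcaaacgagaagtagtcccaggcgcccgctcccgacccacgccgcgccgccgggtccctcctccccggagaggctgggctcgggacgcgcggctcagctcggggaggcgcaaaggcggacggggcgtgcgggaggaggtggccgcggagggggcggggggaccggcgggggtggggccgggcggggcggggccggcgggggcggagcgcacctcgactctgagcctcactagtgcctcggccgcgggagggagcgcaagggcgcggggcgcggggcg
DEAF1 (chr11:695173-695472, minus strand): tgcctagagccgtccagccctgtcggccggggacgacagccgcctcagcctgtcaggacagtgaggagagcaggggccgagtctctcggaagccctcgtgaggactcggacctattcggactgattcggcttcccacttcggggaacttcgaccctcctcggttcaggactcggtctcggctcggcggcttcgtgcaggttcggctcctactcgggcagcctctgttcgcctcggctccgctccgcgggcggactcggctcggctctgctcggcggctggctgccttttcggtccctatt
L3MBTL2 (chr22:41205062-41205361, plus strand): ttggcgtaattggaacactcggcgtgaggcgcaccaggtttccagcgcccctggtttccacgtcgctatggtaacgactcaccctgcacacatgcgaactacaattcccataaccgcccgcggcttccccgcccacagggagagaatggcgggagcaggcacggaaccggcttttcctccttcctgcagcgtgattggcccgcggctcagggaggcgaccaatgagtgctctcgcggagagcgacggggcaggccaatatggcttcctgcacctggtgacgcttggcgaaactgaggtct
The NOTCH1 window is the richest of the 3 in G and C, at 77% of its bases against 67% for DEAF1 and 62% for L3MBTL2. RefSeq gives DEAF1 a further window at an upstream start (chr11:707034-707333), not shown, with 70% G and C. The ARE search above was centred on the outermost start of DEAF1. Its result and distance are therefore not for the start of the DEAF1 window shown.

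Normalized counts, that is, counts divided by the size factor of each library, are given below for replicates 1, 2 and 3 in that order. Log2 fold changes come with their standard error (SE), and a row is called changed where its adjusted p in DESeq2 was under 0.05. Statements that groups did or did not overlap describe the printed libraries and are no test. The share of all tested genes whose groups do not overlap is not given here.

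**Figure D1:**
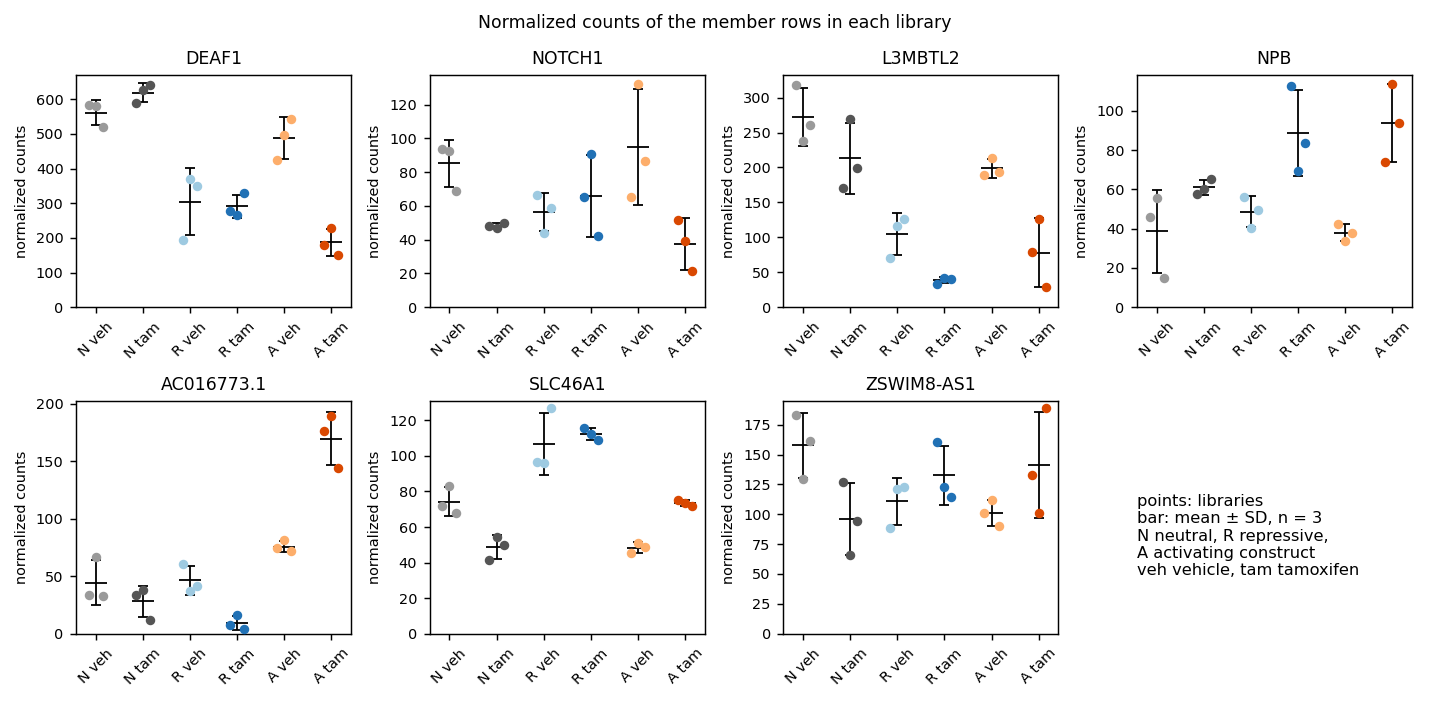
Normalized counts of each of the 7 rows (vertical axes, linear from 0) in the 3 libraries of each of the 6 groups (horizontal axes), with points for libraries and bars for mean ± SD (n = 3). DEAF1 lies between 152 and 228 in the activating line with tamoxifen and at 423 or above with vehicle, and AC016773.1 is at most 16.2 in the repressive line with tamoxifen and at least 144 in the activating line with tamoxifen.

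NOTCH1 was lower with tamoxifen in the activating line and in the neutral line, and not in the repressive line. In the activating line the counts were 65.3, 132 and 86.9 with vehicle and 51.7, 39.1 and 21.2 with tamoxifen. All 3 tamoxifen libraries lay below all 3 vehicle libraries, although the vehicle values differed by more than the gap between the groups. The log2 fold change in this contrast, which chose the row, was -1.35 (SE 0.31). In such bulk libraries fewer cells with a transcript and less of it per cell cannot be told apart. In the neutral line, which took no part in choosing NOTCH1, the counts were 93.7, 92.8 and 69.0 with vehicle and 48.2, 46.8 and 49.9 with tamoxifen. The groups again did not overlap, and the log2 fold change was -0.82 (SE 0.31, unadjusted p = 0.00755). Independent filtering left this row without an adjusted p there, and without that filtering its adjusted p was 0.325, so the difference is not called. The activating effect on NOTCH1 differed from the neutral one by -0.53 (SE 0.44), which was not called (DESeq2 adjusted p = 0.658).

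The repressive line showed NOTCH1 counts of 66.5, 44.02 and 58.8 with vehicle and 65.0, 90.5 and 41.9 with tamoxifen. These groups overlapped, and the log2 fold change of 0.22 had a 95% interval from -0.38 to 0.82 (DESeq2 adjusted p = 0.765). Its effect in the repressive line exceeded that in the neutral line by 1.04 (SE 0.43, adjusted p = 0.135), which did not pass the threshold. With vehicle alone the repressive line had 56.4 ± 11.4 (SD, n = 3) and the neutral line 85.1 ± 14.01, a log2 difference of -0.59 (SE 0.30) that was not called (adjusted p = 0.341).

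Among 44 Notch pathway genes looked up in the table, 14 had enough reads to be tested. NOTCH1 was the single one called in any line, lower in the activating line, in the contrast that chose it. The median log2 fold change of the 14, NOTCH1 included, was -0.23 there against -0.000267 over all tested genes. It was lower still in the neutral line, -0.30 against 0.00485, and was 0.11 against -0.023 in the repressive line. The receptor NOTCH3 had log2 fold changes of 0.02 (SE 0.33) in the neutral, 0.63 (SE 0.38) in the repressive and -0.87 (SE 0.34) in the activating line. HES4, a transcriptional target, had -0.75 (SE 0.36), 0.06 (SE 0.37) and -1.07 (SE 0.38) across these lines. Neither was called, and in the activating line both lacked an adjusted p because of their low counts. For the ligands JAG1 and JAG2 the values in the activating line were -0.26 (SE 0.55) and 0.29 (SE 0.38).

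DEAF1 was lower with tamoxifen in the activating line and nearly level in the other lines. Its counts in the activating line were 423, 497 and 544 with vehicle and 180.4, 228 and 152 with tamoxifen. Every tamoxifen library had less than every vehicle library by a wide margin, with means of 488 ± 60.9 and 187 ± 38.4 (SD, n = 3) and a log2 fold change of -1.39 (SE 0.21). The neutral line, whose difference from the activating line also chose this row, held 582, 582 and 521 with vehicle and 589, 627 and 641 with tamoxifen. All 3 tamoxifen libraries there lay above all 3 vehicle libraries, by a narrow margin, and the log2 fold change was 0.14 (SE 0.20).

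In the repressive line, DEAF1 counts were 195, 371 and 349 with vehicle and 277, 267 and 328 with tamoxifen. Replicate 1 with vehicle was the lowest of the 6 and the groups overlapped. The log2 fold change was -0.07 with a 95% interval from -0.48 to 0.34 (DESeq2 adjusted p = 0.902). Both repressive groups, at 305 ± 96.1 and 291 ± 32.8, lay below both neutral groups, at 562 ± 34.9 and 619 ± 27.1. The vehicle difference between these lines was -0.88 (SE 0.20) on the log2 scale, given without a test because neutral libraries chose DEAF1.

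EPS8L2, on the other strand, did not follow DEAF1. It had 67.2, 59.9 and 87.8 with vehicle and 57.8, 40.0 and 81.1 with tamoxifen in the activating line, where the groups overlapped and the log2 fold change was -0.26 (SE 0.26, adjusted p = 0.639). It was not called in the neutral or the repressive line either. With the reads of both rows added, the DEAF1 locus had a log2 fold change of -1.18 (SE 0.13) in the activating line. LDB1, a LIM-domain-binding cofactor and the only other tested gene among 5 listed DEAF1 partners, had 0.12 (SE 0.43) there.

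L3MBTL2 was lower with tamoxifen in the repressive line as well as in the activating line. Repressive-line counts were 70.3, 117 and 127 with vehicle and 34.0, 41.8 and 40.9 with tamoxifen. The groups did not overlap, and the row fell by 1.43 on the log2 scale (SE 0.40, DESeq2 adjusted p = 0.00489), to 0.371 of the vehicle level. Under every alternative setting tried the adjusted p stayed at or under 0.0473. In the activating line, whose contrast chose the row, the counts were 189, 213 and 194 with vehicle and 79.0, 126 and 28.6 with tamoxifen. The tamoxifen libraries there spread widely but all lay below the vehicle libraries, with a log2 fold change of -1.35 (SE 0.38), and the call was lost when only the 6 libraries of that line were fitted (adjusted p = 0.202), without vehicle replicate 2 (0.0771) or without tamoxifen replicate 1 (0.0512).

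The neutral line held L3MBTL2 counts of 318, 238 and 261 with vehicle and 171, 269 and 199 with tamoxifen. These overlapped, with a log2 fold change of -0.36 and a 95% interval from -1.09 to 0.38 (adjusted p = 0.755). The repressive effect exceeded the neutral one by -1.07 (SE 0.55), which was not called (adjusted p = 0.255), so the lines are not shown to differ in their response. Before any tamoxifen the repressive line already had less L3MBTL2 than the neutral line, 105 ± 30.2 against 273 ± 41.4 (SD, n = 3), a log2 difference of -1.38 (SE 0.38, adjusted p = 0.0108). That call was lost without neutral vehicle replicate 1 (adjusted p = 0.0843) or repressive vehicle replicate 1 (adjusted p = 0.0953).

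RP4-756G23.5, the antisense RNA at the L3MBTL2 locus, had 35.0, 25.1 and 37.1 with vehicle and 48.6, 45.6 and 63.6 with tamoxifen in the activating line. Its tamoxifen libraries all lay above the vehicle libraries while those of L3MBTL2 all lay below, and its log2 fold change was 0.70 (SE 0.34, unadjusted p = 0.0378, no adjusted p). The repressive line gave it -0.14 (SE 0.35, adjusted p = 0.881). The share of L3MBTL2 in the reads of both rows went from 85.9% ± 3.09 (SD, n = 3) to 55.5% ± 21.97 in the activating line and from 75.5% ± 8.74 to 58.0% ± 7.51 in the repressive line. Of 14 listed PRC1.6 genes 7 were tested, and L3MBTL2 was the single one called, in both lines. RING1, a catalytic subunit, had -0.60 (SE 0.64) in the activating and -0.24 (SE 0.63) in the repressive line. WDR5, a histone-binding scaffold, had -0.77 (SE 0.70) and -1.22 (SE 0.73), neither called.

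NPB counts were higher with tamoxifen in all 3 lines, and the groups did not overlap in any of them. With the repressive construct the counts were 56.0, 40.4 and 49.6 with vehicle and 113, 69.6 and 83.8 with tamoxifen. The row rose by 0.87 on the log2 scale (SE 0.30, DESeq2 adjusted p = 0.0311), or 1.83-fold. In the neutral line the counts were 45.8, 55.5 and 14.8 with vehicle and 57.8, 60.4 and 65.1 with tamoxifen, a log2 fold change of 0.66 (SE 0.31, unadjusted p = 0.0333, no adjusted p) that is not called. The activating line, which chose the row, had 42.3, 33.8 and 38.0 with vehicle and 74.0, 113 and 94.0 with tamoxifen, a log2 fold change of 1.30 (SE 0.30).

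The repressive effect on NPB exceeded the neutral one by 0.21, with a 95% interval from -0.63 to 1.05 (adjusted p = 0.863), so no difference between these lines was detected within that interval. With vehicle the repressive and neutral lines did not differ by the test (log2 difference 0.33, SE 0.31, adjusted p = 0.726). The repressive call for NPB was lost under total-count scaling (adjusted p = 0.0867), and without any of 4 single libraries of that line, namely vehicle replicates 2 and 3 (adjusted p = 0.161 and 0.0760) and tamoxifen replicates 1 and 3 (adjusted p = 0.219 and 0.0549).

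PCYT2, which covers most of NPB from the other strand, had 38.0, 47.6 and 38.6 with vehicle and 30.1, 26.7 and 24.1 with tamoxifen in the repressive line. Here PCYT2 was lower in all 3 tamoxifen libraries while NPB was higher, and the PCYT2 change of -0.62 (SE 0.31) was not called (adjusted p = 0.208). The share of NPB in the reads of both rows went from 53.9% ± 7.13 (SD, n = 3) to 76.3% ± 3.52. With the reads of both rows added, the change was 0.37 (SE 0.21, adjusted p = 0.298) in the repressive line and 0.78 (SE 0.21) in the activating line. None of the 4 tested genes among 14 listed for phosphatidylethanolamine and phosphatidylcholine synthesis was called in any line, and NPB was the only tested gene among the peptides NPB and NPW and their receptors.

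**Figure D2:**
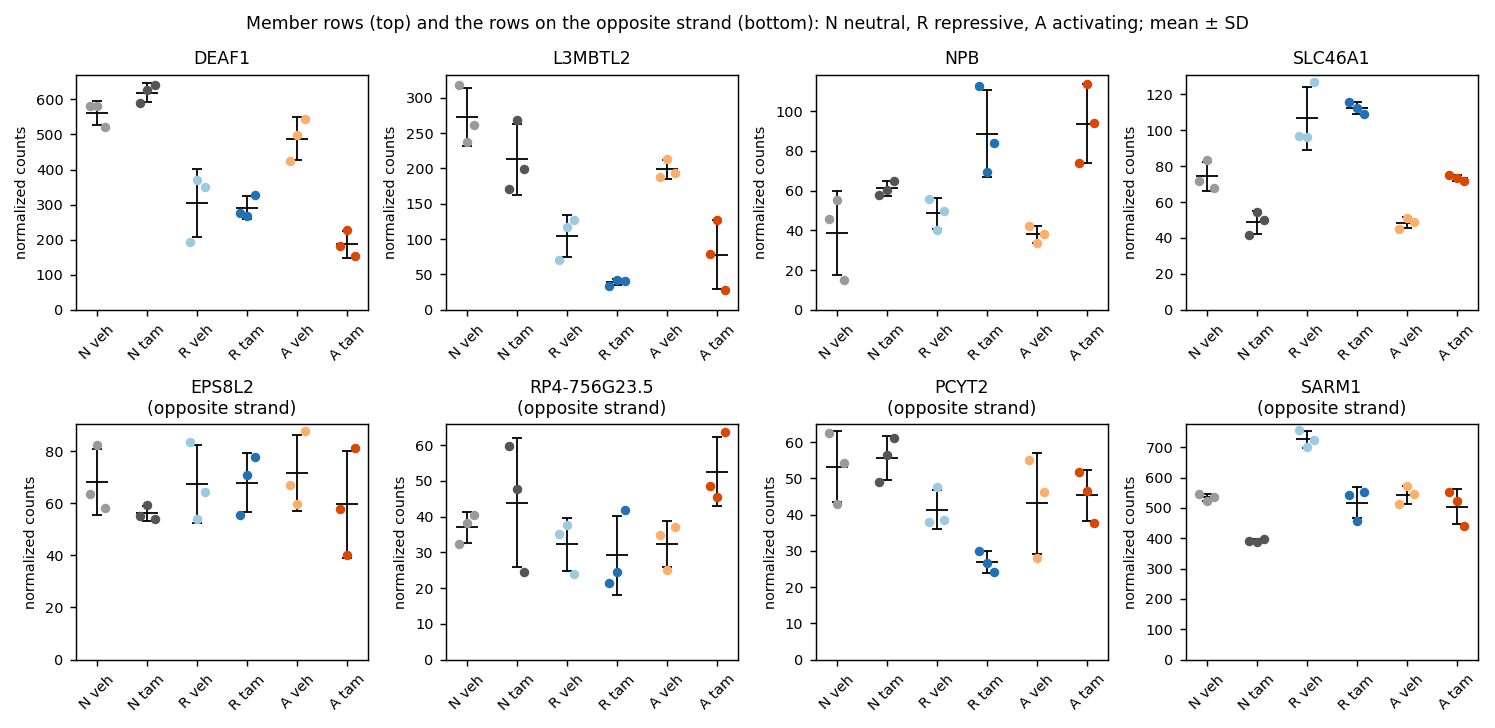
Normalized counts (vertical axes, linear from 0) of 4 rows, top, and of the gene on the opposite strand of each, bottom, in the 6 groups (horizontal axes), with points for libraries and bars for mean ± SD (n = 3). SARM1 is lower with tamoxifen in the neutral line (392 against 535) and the repressive line (517 against 726), where SLC46A1 is at 48.6 against 74.3 and 112 against 107.

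SLC46A1 went in opposite directions in the neutral and the activating line. In the neutral line it had 71.8, 83.2 and 68.0 with vehicle and 41.4, 54.6 and 49.9 with tamoxifen. In the activating line it had 45.1, 51.2 and 48.9 with vehicle and 75.0, 73.5 and 71.9 with tamoxifen. Neither pair of groups overlapped. The log2 fold changes were -0.61 (SE 0.22) and 0.60 (SE 0.22), and their difference of 1.22 (SE 0.31) is the contrast that chose the row. Both lines began from different levels, 74.3 ± 7.92 and 48.4 ± 3.08 with vehicle, and each ended with tamoxifen near the vehicle level of the other.

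The repressive line had the highest SLC46A1 counts, 96.8, 96.1 and 127 with vehicle and 115, 113 and 109 with tamoxifen. These overlapped, and the log2 fold change was 0.08 with a 95% interval from -0.31 to 0.46 (DESeq2 adjusted p = 0.885).

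SARM1, on the opposite strand, fell by 0.45 on the log2 scale in the neutral line (SE 0.10, DESeq2 adjusted p = 6.15e-04), from 544, 522 and 537 with vehicle to 389, 388 and 399 with tamoxifen. With the repressive construct it fell by 0.49 (SE 0.10, adjusted p = 1.11e-05), from 757, 700 and 722 to 542, 457 and 551. The activating line had 512, 573 and 545 with vehicle and 552, 521 and 439 with tamoxifen, which overlapped (log2 fold change -0.11, SE 0.10, adjusted p = 0.590). The SARM1 effect in the activating line was 0.34 (SE 0.14) above that in the neutral line, which was not called (adjusted p = 0.201). With vehicle SARM1 was higher in the repressive than in the neutral line by 0.44 (SE 0.09, adjusted p = 2.30e-04).

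The share of SLC46A1 in the reads of both rows rested at 12.2% ± 1.34 (SD, n = 3) with vehicle and 11.02% ± 1.36 with tamoxifen in the neutral line. It was 12.8% ± 1.897 and 17.9% ± 1.66 in the repressive line and 8.17% ± 0.08 and 12.8% ± 1.11 in the activating line. In both of these lines each tamoxifen library was above each vehicle library. Adding the reads of both rows gave -0.47 (SE 0.09) in the neutral, -0.40 (SE 0.09) in the repressive and -0.04 (SE 0.09) in the activating line, which is the SARM1 pattern, since SARM1 holds most of the reads.

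Of 22 listed genes of folate transport and one-carbon metabolism 8 were tested. SLC19A1, the reduced folate carrier, which lies opposite COL18A1, rose in the neutral line by 0.66 (SE 0.16, adjusted p = 0.00261) and in the repressive line by 1.04 (SE 0.15, adjusted p = 1.20e-09), and had 0.33 (SE 0.16, adjusted p = 0.203) in the activating line. SHMT2, the mitochondrial serine hydroxymethyltransferase, which lies opposite NDUFA4L2, fell by 1.65 in the repressive line (SE 0.58, adjusted p = 0.0380). Its counts were low, 3 to 23 per library, with normalized means of 16.6 with vehicle and 5.37 with tamoxifen in that line. Among 10 genes listed with SARM1 for NAD synthesis 5 were tested. NMNAT2, an NAD-synthesising enzyme that opposes SARM1 in axons, rose by 1.80 in the repressive line (SE 0.58, adjusted p = 0.0180). It too was low, with 5 to 26 counts per library and normalized means of 6.12 with vehicle and 21.4 with tamoxifen in that line.

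ZSWIM8-AS1 was chosen on the same difference as SLC46A1, so a like direction of these rows in the neutral and activating lines is no separate result. Over the 18 libraries their Pearson correlation was 0.30. ZSWIM8-AS1 had 183, 129 and 162 with vehicle and 127, 66.2 and 94.6 with tamoxifen in the neutral line. In the activating line it had 101, 112 and 90.5 with vehicle and 133, 101 and 189 with tamoxifen. The neutral groups did not overlap and the activating groups did, with 1 tamoxifen library at 189 well above the others. The log2 fold changes were -0.72 (SE 0.23) and 0.48 (SE 0.23), and their difference of 1.20 (SE 0.33) chose the row. The repressive line held counts of 88.3, 121 and 123.1 with vehicle and 160.1, 123.03 and 114 with tamoxifen, a log2 fold change of 0.26 with a 95% interval from -0.20 to 0.72 (DESeq2 adjusted p = 0.595). ZSWIM8 itself had a mean of 6.57 to 17.6 in the 6 groups and was not called in any line.

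The ZSWIM8-AS1 row is not independent of the row RP11-574K11.31 on the same strand. Salmon divides a read that fits several transcripts, and in all 18 libraries ZSWIM8-AS1 had a fractional count. In 17 of the 18 the count of RP11-574K11.31 completed that fraction to a whole number. In the activating line with tamoxifen, replicate 3 had the highest ZSWIM8-AS1 count, 189, and the lowest RP11-574K11.31 count, 159, while replicates 1 and 2 had 240.2 and 280.1 of the latter. ZSWIM8-AS1 took 54.3% of the reads of both rows in that replicate and 35.5% and 26.5% in the others.

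Adding both rows narrowed the spread in the activating line with tamoxifen, from an SD of 44.3 to 17.3. With vehicle in that line the SD rose from 10.7 to 23.0. The sums were 373, 381 and 348 in the activating line with tamoxifen and 310.03, 342 and 355 with vehicle, which overlapped, with a log2 fold change of 0.13 (SE 0.11). In the neutral line the sums were 390.3, 361 and 344 with vehicle and 315, 288 and 327 with tamoxifen (log2 fold change -0.23, SE 0.11). The difference of these effects became 0.37 (SE 0.15, adjusted p = 0.210), no longer called, against 1.20 for ZSWIM8-AS1 alone. Sums in the repressive line were 263, 300.04 and 290.3 with vehicle and 402, 379.5 and 364 with tamoxifen, and the summed reads rose by 0.42 (SE 0.11, DESeq2 adjusted p = 0.00145). RP11-574K11.31 alone rose there by 0.52 (SE 0.16, adjusted p = 0.0158). Both summed rows lie opposite ZSWIM8, and whether they hold its reads was not tested.

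**Figure D3:**
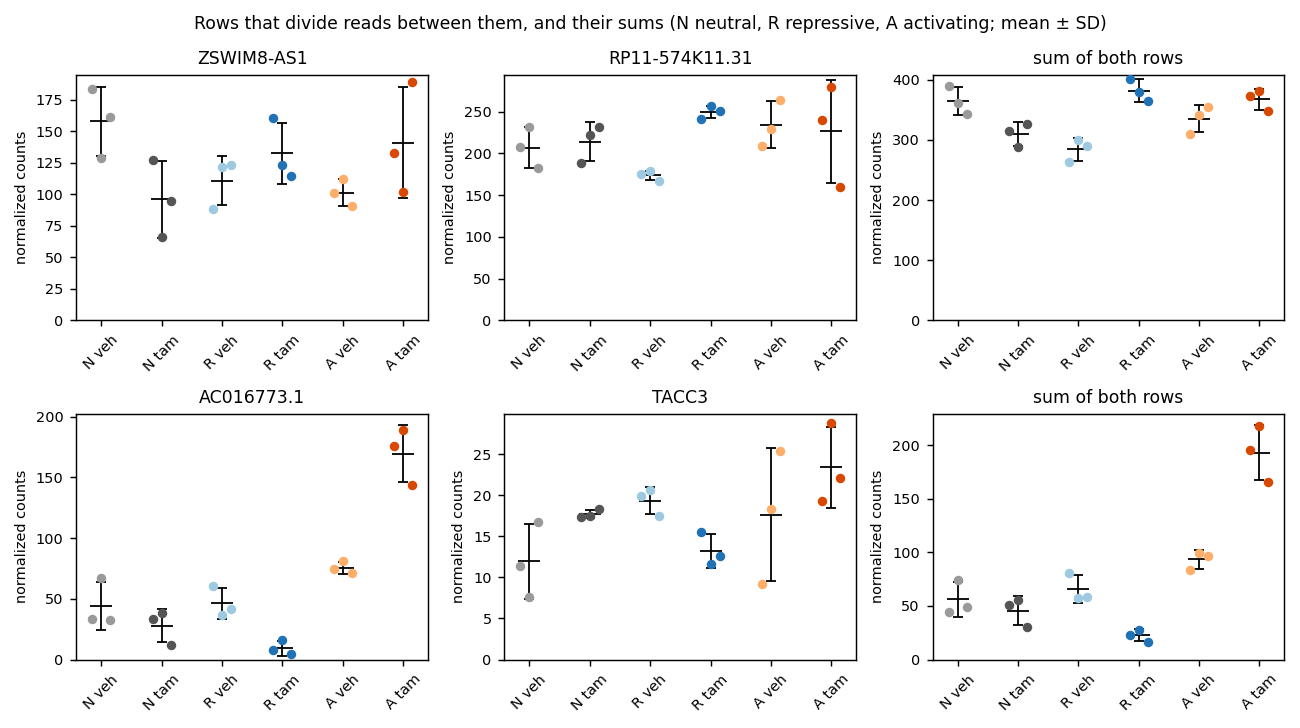
Normalized counts (vertical axes, linear from 0) of ZSWIM8-AS1, RP11-574K11.31 and their sum, top, and of AC016773.1, TACC3 and their sum, bottom, in the 6 groups (horizontal axes), with points for libraries and bars for mean ± SD (n = 3). The sum for ZSWIM8-AS1 is 284 ± 19.2 with vehicle and 382 ± 19.0 with tamoxifen in the repressive line, and the sum for AC016773.1 is 93.3 ± 8.43 and 193 ± 26.0 in the activating line.

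AC016773.1 fell in the repressive line and was higher with tamoxifen in the activating line. Counts in the repressive line were 60.8, 36.8 and 41.3 with vehicle and 7.76, 16.2 and 4.19 with tamoxifen. The groups lay far apart, and the row fell by 2.33 on the log2 scale (SE 0.41, DESeq2 adjusted p = 7.88e-07), to 0.199 of the vehicle level, and it was called under every alternative. In the activating line it had 74.5, 81.1 and 71.5 with vehicle and 176, 189 and 144 with tamoxifen, a log2 fold change of 1.16 (SE 0.30) in the contrast that chose it. The neutral line had 33.3, 67.0 and 32.5 with vehicle and 33.7, 38.0 and 12.2 with tamoxifen, which overlapped, with a log2 fold change of -0.66 (SE 0.34).

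With vehicle the level in the activating line, 75.7 ± 4.90 (SD, n = 3), was above the 44.3 ± 19.7 of the neutral and the 46.3 ± 12.7 of the repressive line, and all 3 libraries of the activating line exceeded the others. Reads of this row were divided with TACC3, which encodes a centrosome and spindle protein. AC016773.1 had a fractional count in 16 libraries, and TACC3 completed the fraction in all 16. TACC3 had between 7.65 and 28.8 normalized counts and was not called in any line. Adding both rows gave -1.54 (SE 0.29, adjusted p = 3.51e-06) in the repressive line and 1.05 (SE 0.23) in the activating line, so the direction in each line was kept and the size in the repressive line was smaller.

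**Figure D4:**
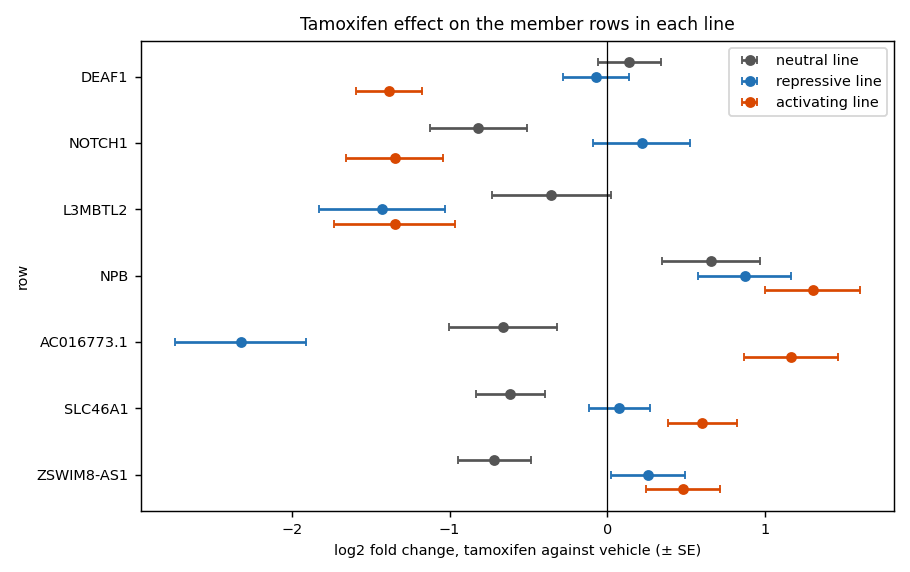
Log2 fold change of tamoxifen against vehicle (horizontal axis) with its standard error (bars) for the 7 rows (vertical axis), coloured by line (neutral grey, repressive blue, activating orange). Under the repressive construct AC016773.1 (-2.33), L3MBTL2 (-1.43) and NPB (0.87) passed the threshold, and the activating values are the ones that chose 5 of the rows.

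Side by side, the rows showed different patterns over the lines. In the repressive line 3 of the 7 were called changed, AC016773.1 and L3MBTL2 lower and NPB higher, against 9.65% of all tested genes. In the neutral line none of the 7 was called by DESeq2 or edgeR, against 0.774% of tested genes, and 3 lacked an adjusted p. NOTCH1, NPB, SLC46A1 and ZSWIM8-AS1 had an unadjusted p under 0.05 there, as had 7.75% of tested genes, and SLC46A1 and ZSWIM8-AS1 were chosen by a contrast that holds this neutral effect. In the activating line 5 of 7 were called, against 2.8%, in the contrast that chose those 5. The activating effect differed from the neutral one for 4 of 7, against 0.619%, again the contrast that chose them. That difference was not called for NOTCH1 (-0.53, SE 0.44, DESeq2 adjusted p = 0.658), L3MBTL2 (-0.99, SE 0.54, adjusted p = 0.449) or NPB (0.64, SE 0.43, adjusted p = 0.562). These rows are thus not shown to respond differently in the activating and the neutral line.

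The repressive and the neutral effect differed by the test for AC016773.1 (-1.67, SE 0.54) and ZSWIM8-AS1 (0.97, SE 0.33), against 3.85% of tested genes, and as neutral libraries took part in choosing both rows these values are a description. The activating effect differed from the repressive one for AC016773.1 (3.49, SE 0.51), NOTCH1 (-1.57, SE 0.44) and DEAF1 (-1.32, SE 0.29), against 4.25% of tested genes, with the activating effect among the values that chose them. With vehicle, L3MBTL2 was called lower in the repressive than in the neutral line, against 2.51% of tested genes. DEAF1 also passed the test there, but neutral vehicle libraries took part in choosing it, so its value is a description. None of the 7 was called between the activating and the neutral line with vehicle by DESeq2 or edgeR, against 0.808%, and 6 lacked an adjusted p. AC016773.1, SLC46A1 and ZSWIM8-AS1 had an unadjusted p under 0.05 there, as had 7.1% of tested genes, and these vehicle libraries took part in choosing all 3.

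Within 20 kb of the 6 placed rows the table lists 37 other rows, of which 16 were tested. Of these 16, SARM1 was called in the neutral line, against 0.774% of all tested genes, SARM1 and RP11-574K11.31 in the repressive line, against 9.65%, and none by DESeq2 in the activating line, against 2.8%. There ANAPC11, next to NPB, had the lowest unadjusted p of the rows that share reads (log2 fold change 1.45, SE 0.64, unadjusted p = 0.0239). ANAPC11 encodes a subunit of the anaphase-promoting complex and completed the fraction of NPB in the 2 libraries where NPB had one. With both added, the repressive change of NPB was 0.76 (SE 0.29, adjusted p = 0.0710). None of 5 tested genes among 8 listed with the ZSWIM8 ligase, and none of 2 tested among 8 listed with EPS8L2, was called in any line.

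Over the 18 libraries L3MBTL2 and DEAF1 had the closest profiles of the 7 rows (Pearson r = 0.82). The next strongest was L3MBTL2 with NPB (r = -0.64). These are descriptions, since the libraries share lines and treatments. Among the 1462 genes with a mean of at least 50 normalized counts, the row most like L3MBTL2 was RP11-567I13.1 (r = 0.93, opposite CSNK2A3) and the row most like DEAF1 was CTB-79E8.2 (r = 0.86, opposite NEURL1B), which was also the third for L3MBTL2 (r = 0.92). For AC016773.1 they were RP11-66B24.4 (r = 0.88, opposite the retinoic acid-synthesising enzyme ALDH1A3) and LTBR (r = 0.86, opposite SCNN1A). NOTCH1 was most like RP11-1007O24.3 (r = 0.77, opposite ARIH1), NPB most like RP11-77H9.2 (r = 0.82), SLC46A1 most like CTA-134P22.2 (r = 0.80, opposite CADM3) and ZSWIM8-AS1 most like YEATS2-AS1 (r = 0.73).

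Some rows of cell-state markers were called changed in the same libraries. Of 10 tested basal rows 3 were called higher in the neutral line, 5 in the repressive and 1 in the activating line. None was called lower. Of all tested genes 0.774%, 9.65% and 2.8% were called in these lines, in that order. Which strand's transcripts the marker rows hold was not tested. KRT8, a luminal keratin that lies opposite KRT18, fell by 0.33 in the activating line (SE 0.08, DESeq2 adjusted p = 0.00225). No other of 4 tested luminal genes was called. The neutral line gave KRT8 a similar value of -0.26 (SE 0.09) that just missed the threshold (adjusted p = 0.0501). In the repressive line KRT8 had -0.03 (SE 0.08, adjusted p = 0.894). The part of these markers in the values of the 7 rows was not tested.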

How the data were processed

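RNA-seq was done on 18 libraries. The authors ran the nf-core/rnaseq workflow on GRCh37, and the labels name Salmon 1.9.0 and DESeq2 1.28.0. The deposited table holds expected counts (Salmon's estimated reads per gene), not scaled for depth or length. Of its values 0.826% lay more than 0.005 from a whole number, and all were rounded. The 5816 genes with 10 or more counts in 3 or more libraries (97.6% of counts) were tested in a single DESeq2 1.42.0 model (R 4.3.3) with a mean per group, median-of-ratios size factors, Wald tests, Benjamini-Hochberg adjustment over all tested genes and independent filtering. A trial of the model on simulated data covered only tamoxifen against vehicle in the activating line, and its outcome is not given here. Exon overlaps came from GENCODE on GRCh37, to which 96.1% of genes matched by identifier.

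The 7 rows, the gene lists and the comparisons were chosen with earlier results of these data known. Named are the 7 rows, opposite-strand genes, tested rows within 20 kb, listed genes called in a line or central to a list, and the most correlated genes, of which the top 1 to 3 are printed. Alternatives were edgeR 4.0.16, total-count scaling, other filters, the replicate block, summed rows and leaving out each library. Summing rows that share reads was chosen after seeing the data.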

Additional observations from a re-analysis of the deposited data

Results flagged for a closer look

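Differences of the tamoxifen effect between lines passed the adjusted threshold in DESeq2 for 5 of the 7 rows. Of all tested genes 0.619% passed for activating against neutral, 3.85% for repressive against neutral and 4.25% for activating against repressive. Against the neutral line, the activating line differed by 1.82 on the log2 scale for AC016773.1, -1.53 for DEAF1, 1.22 for SLC46A1 and 1.20 for ZSWIM8-AS1. This is the contrast that chose these rows, so the values are a description. With the repressive line as reference, the activating line differed by 3.49 for AC016773.1, -1.32 for DEAF1 and -1.57 for NOTCH1, and these share the activating effect that took part in the choice. NOTCH1 lost that call without repressive tamoxifen replicate 2 (-1.28, adjusted p = 0.0713) or activating vehicle replicate 2 (-1.25, adjusted p = 0.0674).

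The repressive line differed from the neutral line by -1.67 for AC016773.1 and by 0.97 for ZSWIM8-AS1. Both sat close to the threshold (adjusted p = 0.0308 and 0.0455). AC016773.1 lost the call in edgeR (adjusted p = 0.0755), without independent filtering (0.0533), with only the libraries compared (0.111) and without any 1 of 7 single libraries (neutral vehicle 1 or 3, neutral tamoxifen 1 or 2, repressive vehicle 1, repressive tamoxifen 1 or 3), where the adjusted p was 0.0793 to 0.169. ZSWIM8-AS1 lost it in edgeR (adjusted p = 0.0688), with total-count scaling (0.0916), without independent filtering (0.0773) and without any 1 of 8 single libraries (neutral vehicle 1 or 3, neutral tamoxifen 2 or 3, repressive vehicle 1, repressive tamoxifen 1, activating vehicle 2, activating tamoxifen 1), where the adjusted p was 0.0583 to 0.178. Against the neutral line, the activating difference of SLC46A1 lost its call in edgeR (adjusted p = 0.0778), as did that of ZSWIM8-AS1 (0.0809), which also lost it without independent filtering (0.0538) and without any 1 of 4 single libraries (neutral vehicle 1, neutral tamoxifen 2, activating vehicle 3, activating tamoxifen 3), at an adjusted p of 0.0859 to 0.143. With the reads of RP11-574K11.31 added, ZSWIM8-AS1 kept the repressive difference at 0.66 (adjusted p = 6.78e-04) and lost the activating one at 0.37 (adjusted p = 0.210).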

How the results depend on the processing

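Of 214 recomputed counts of called rows 190 stayed within 1.5 times the reported count. In the neutral line 1 of the 7 rows was called with total-count scaling and with no low-count filter, ZSWIM8-AS1 in each, and 2 with opposite-strand rows summed (0 as reported). The activating and neutral effects differed for 2 rows in edgeR (4 as reported), and the repressive and neutral effects for 0 in edgeR, 0 without independent filtering and 1 with total-count scaling (2 as reported). Leaving out each library in turn gave 0 to 1 called rows in the neutral, 2 to 3 in the repressive and 4 to 5 in the activating line, 3 to 5 for activating against neutral effects, 0 to 3 for repressive against neutral effects, and 1 to 2 for repressive against neutral vehicle. Total-count scaling shifted the median of all genes by -0.13 in the repressive line. Whether replicate numbers pair the libraries was not settled. Deviations of same-numbered libraries correlated between -0.30 and 0.14, with 2 of 9 pairs above 0.1. In the activating line these correlations were all positive (0.12, 0.14 and 0.048), and in the neutral line all negative (-0.093, -0.30 and -0.057). With the replicate block 3, 5 and 0 rows were called in the repressive, activating and neutral line, as without it.

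Summed with SARM1, which holds most of the reads, SLC46A1 turned to -0.40 (adjusted p = 1.28e-04) in the repressive and -0.035 in the activating line, and total-count scaling gave -0.053 for SLC46A1 and -0.12 for EPS8L2 in the repressive line. Other changes of sign, in uncalled values, came from leaving out single libraries. In the repressive line these values then ranged from -0.31 to 0.095 for DEAF1, -0.069 to 0.47 for NOTCH1, -0.12 to 0.20 for EPS8L2, -0.49 to 0.050 for RP4-756G23.5 and -0.69 to 0.025 for ZSWIM8. The ranges were -0.033 to 0.54 for RP4-756G23.5 and -0.075 to 0.19 for PCYT2 in the neutral line, and -0.16 to 0.28 for PCYT2 in the activating line. The causes were not tested.

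The lowest values of the 7 rows were those of AC016773.1 in the repressive line with tamoxifen, down to 4.19 normalized counts, near the floor of 3 counts. In the neutral line with vehicle, ANAPC11, which shares reads with NPB, went down to 1.97. ZSWIM8, opposite ZSWIM8-AS1, went down to 4.78 there.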
